A study of Saccharomyces cerevisiae and Schizosaccharomyces pombe with 10 samples.

Results

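The transfer RNA genes of fission yeast (Schizosaccharomyces pombe) were followed through single molecules of nascent RNA, the RNA isolated with chromatin while polymerases are still at work. Members were all nuclear genes annotated as tRNA, 171 in number, with 56 on chromosome I, 68 on chromosome II and 47 on chromosome III. A read belonged to a gene when it lay on the same strand and at least 50% of the read or of the gene overlapped. This gave 146 reads on 52 of the 171 genes, out of 16126 alignments of the sample and 117254 of the whole series. The series compares nascent RNA of budding yeast (Saccharomyces cerevisiae) and fission yeast by long-read sequencing, mainly to follow splicing. The only fission yeast sample came from strain L972, genotype wild type h-, grown exponentially in rich medium (YPD or YES, per the labels) at 30 °C. Its RNA was ligated at the 3' end to a DNA adaptor, copied with a SMARTer cDNA kit, amplified over few PCR cycles and sequenced as single molecules on a Pacific Biosciences instrument. With 1 sample there is no spread between replicates and no test, and all intervals are 95% intervals that cover counting error only.

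tRNA genes are transcribed by RNA polymerase III, which stops in a run of T just past the gene. The primary transcript carries a 5' leader, which RNase P cuts off, and a 3' trailer, which RNase Z and exonucleases remove, after which the CCA tail is added by an enzyme rather than read from the gene. Some genes also hold a short intron close to the anticodon, which is cut out by a dedicated endonuclease and ligase and not by the spliceosome. A molecule that begins upstream of the gene and ends downstream of it therefore has the outline of a primary transcript, and a molecule that spans exactly the gene has the outline of an end-processed tRNA.

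The genes with the most reads are shown first, since their ends and copies recur in the results. Sequences are from the RefSeq assembly ASM294v3, 5' to 3' on the strand of the gene. The annotated gene is in capitals, and lower case gives the 10 bases upstream and the bases downstream as far as the end of the first run of at least 4 T. tRNA-Gly.05 lies at II:326235-326305 (plus strand), tRNA-Gly.12 at III:2037352-2037422 (plus), tRNA-Gly.04 at II:285389-285459 (minus), tRNA-Ala.06 at I:4796977-4797059 (plus) and tRNA-Arg.10 at III:1067092-1067164 (minus).
tRNA-Gly.05: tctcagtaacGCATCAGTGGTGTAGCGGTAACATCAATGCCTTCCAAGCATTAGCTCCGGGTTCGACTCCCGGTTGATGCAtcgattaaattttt
tRNA-Gly.12: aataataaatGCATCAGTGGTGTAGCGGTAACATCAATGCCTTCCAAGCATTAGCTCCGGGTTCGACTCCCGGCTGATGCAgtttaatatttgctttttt
tRNA-Gly.04: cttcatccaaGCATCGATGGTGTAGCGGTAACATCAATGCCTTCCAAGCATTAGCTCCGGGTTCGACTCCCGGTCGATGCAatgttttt
tRNA-Ala.06: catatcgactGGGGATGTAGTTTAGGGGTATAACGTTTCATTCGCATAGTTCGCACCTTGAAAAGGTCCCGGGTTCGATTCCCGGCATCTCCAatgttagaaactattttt
tRNA-Arg.10: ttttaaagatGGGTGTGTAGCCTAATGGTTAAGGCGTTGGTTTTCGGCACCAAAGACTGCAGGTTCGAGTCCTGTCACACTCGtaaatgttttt

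tRNA reads were a small part of the library. They made up 146 of 16126 alignments (0.905%, Wilson interval 0.770 to 1.06%), and 0 reads were found on the opposite strand of these genes. The read names show 4 sequencing movies of the same sample, 2 earlier and 2 later. The share was 0.862% of 7305 alignments in the earlier movies and 0.941% of 8821 in the later ones, which differed by less than the counting error. tRNA reads were short, with a median aligned length of 85 nt (46 to 285 nt) against 157 nt over all alignments. No tRNA read contained an alignment gap, and none had a second alignment.

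The reads were unevenly spread over the genes. Of the 171 genes, 119 had no read, 25 had 1 read, 25 had 2 to 9 and 2 had at least 10. The glycine gene tRNA-Gly.05 had 17 reads (exact Poisson interval 9.90 to 27.2) and the alanine gene tRNA-Ala.06 had 12 (6.20 to 21.0), so that both together held 29 reads, or 19.9% of the total. Their intervals overlap, and the order of these genes is not fixed by these counts. tRNA-Gly.12 followed with 8 reads, and tRNA-Gly.04, tRNA-Arg.10 and the serine gene tRNA-Ser.10 had 6 each. The genes tRNA-Ile.02, tRNA-Leu.03, tRNA-Pro.01, tRNA-Ser.01 and tRNA-Tyr.04 had 5 reads each.

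**Figure D1:**
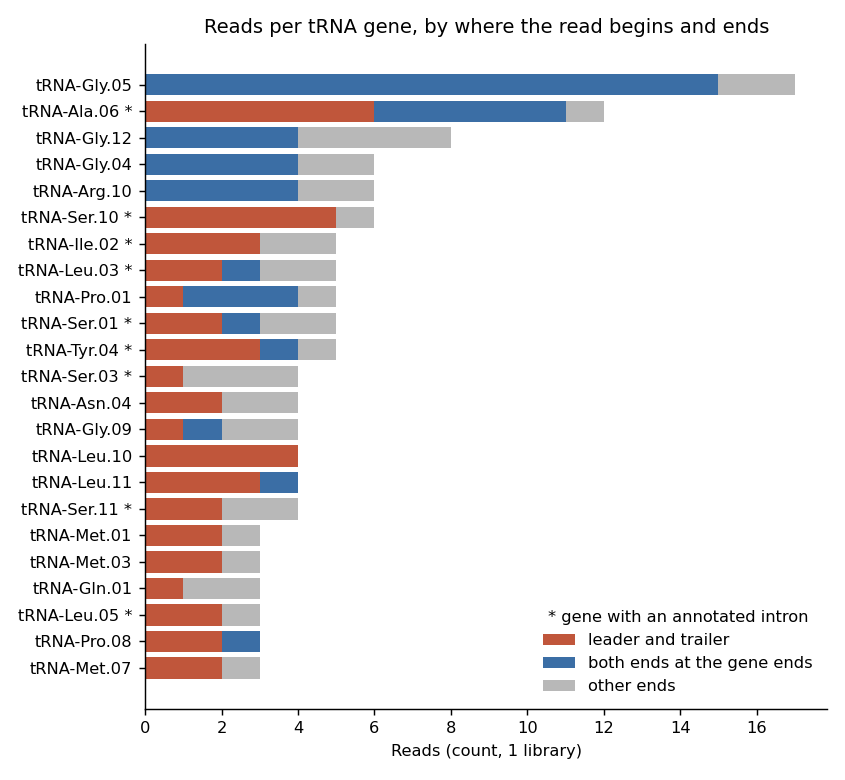
Reads per gene (horizontal axis, count in 1 library) for the 23 tRNA genes with at least 3 reads (vertical axis). Red is reads with a leader and a trailer of at least 3 nt each, blue is reads with both ends within 2 nt of the gene ends, grey is all other reads, and an asterisk marks an annotated intron. tRNA-Gly.05 (17 reads) is mostly blue, tRNA-Ala.06 (12 reads) is split between red and blue, and tRNA-Ser.10 (6 reads) is mostly red.

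By isotype, that is, by the amino acid the tRNA carries, reads were found for 17 of 20. Glycine genes had 36 reads (25.2 to 49.8) on 5 of 12 genes, serine genes 21 (13 to 32.1) on 6 of 13 and leucine genes 18 (10.7 to 28.4) on 6 of 13. Glycine and serine together held 39.0% of the tRNA reads, and the intervals of these leading isotypes overlap. Alanine genes had 13 reads on 2 of 12 genes, all but 1 of them at tRNA-Ala.06. Methionine and proline genes had 10 reads each, asparagine 9, arginine 8, glutamine 6, tyrosine 6 and isoleucine 5. At the low end, glutamate and valine genes had 3 reads each, cysteine, lysine and threonine 2 each, and phenylalanine 1, none of which can be ordered at this depth. No read fell on the 8 aspartate, 4 histidine and 3 tryptophan genes, a count of 0 that allows up to 3 reads for each isotype as a one-sided limit (3.69 as the upper end of the two-sided interval used for the other counts). A read that covered a pair of genes was counted in both isotypes.

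Isotypes with equally many genes had different counts. Lysine and valine have 12 genes each, as glycine does, and had 2 and 3 reads against 36. Reads per gene fell as the number of identical copies rose. The 171 genes hold 69 distinct sequences, of which 38 occur once, and 133 genes share their sequence with another. The 38 genes with a sequence of their own had 109 reads, or 2.87 per gene, and 27 of them had reads. Genes with 2 or 3 copies had 0.839 reads per gene (26 reads on 31 genes), those with 4 or 5 copies 0.600 (15 reads on 25 genes) and those with 6 to 9 copies 0.0649 (5 reads on 77 genes). In these counts the tandem reads described below stand at both of their genes. All 5 reads at genes with 6 to 9 copies ran into the trailer. Reads that lay wholly inside the gene, and so hold no flanking base that could tell identical copies apart, were 48 of 109 (44.0%, 35.1 to 53.4%) at single genes and 7 of 46 (15.2%, 7.57 to 28.2%) at shared ones. Among genes without an intron they were 39 of 57 at single genes and 6 of 37 at shared ones. Among genes with an intron they were 9 of 52 and 1 of 9. All 17 reads of tRNA-Gly.05 are among the 48, and identical alignments were not counted once here. How the aligner placed or dropped reads that match several copies is not given in the sources used here, and its part in the counts by locus and isotype was not tested. A low count at a gene with many copies therefore cannot be read as low transcription.

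**Figure D2:**
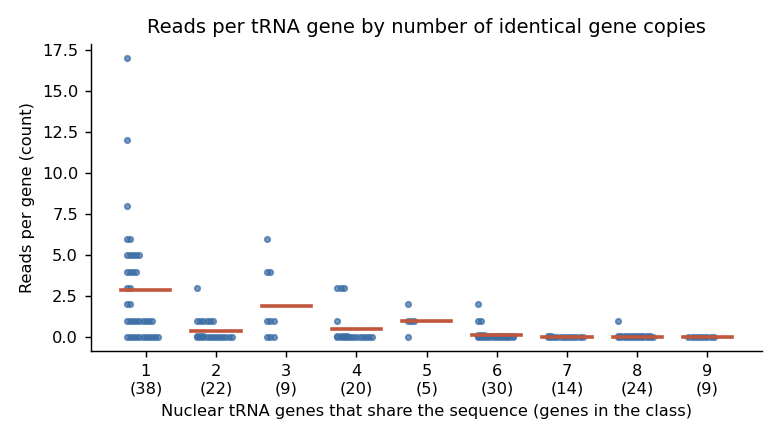
Reads per gene (vertical axis, count) against the number of nuclear tRNA genes with the same sequence (horizontal axis, with the number of genes in each class in brackets). Each point is a gene and each bar is the mean of its class. The genes with 8, 12 and 17 reads all have a sequence of their own, and nearly all genes with 6 or more copies are at 0.

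The glycine reads fell into few distinct alignments. The 17 reads of tRNA-Gly.05 had 3. Of these reads, 14 spanned the gene exactly from its first to its last base, 1 began 1 nt and 2 began 9 nt inside it, and all 17 ended at the last base. They were spread over the movies, with 8 in the earlier and 9 in the later ones. tRNA-Gly.12 had 2 distinct alignments, 4 reads that spanned the gene exactly and 4 that began 3 nt upstream and ended at the last base. The 4 reads with the 3-nt leader all came from the earlier movies. Counted once per distinct alignment, glycine fell from 36 to 15 and stood beside serine (20) and leucine (17). Copies made by PCR and separate molecules with the same ends cannot be told apart here, since the random bases of the adaptor are not in the deposited alignments.

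The glycine genes are also close to each other in sequence. Counted from 1 at the first base of tRNA-Gly.05, tRNA-Gly.12 differs from it by the single substitution T64C, and tRNA-Gly.04 by A6G, G7A and T65C. The assignment of a read to tRNA-Gly.05 or tRNA-Gly.12 thus rests on 1 base where the read does not leave the gene. The aligned bases are not in the deposited alignments, so this assignment was not tested. tRNA-Gly.04 gave 6 reads in 5 distinct alignments, 5 of them ending at the last base of the gene.

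The ends of all 146 reads were sorted by their distance from the gene. At the 5' side, 66 reads (45.2%, 37.4 to 53.3%) carried a leader of at least 3 nt, 63 (43.2%, 35.4 to 51.3%) began within 2 nt of the gene start and 17 (11.6%, 7.40 to 17.9%) began inside the gene. The commonest single position was the first base of the gene itself, with 46 reads, and 14 more began at the next base. At the 3' side, 73 reads (50%, 42.0 to 58.0%) carried a trailer of at least 3 nt, 62 (42.5%, 34.7 to 50.6%) ended within 2 nt of the gene end and 11 (7.53%) ended inside the gene. The last base of the gene alone held 59 of the 3' ends. Bases of a CCA tail are not in the genome. They would not show in alignment coordinates if the aligner cut them off. If it aligned them as mismatches, they could count as a trailer of 3 nt, and 6 reads ended 3 nt past the gene. Reads with and without the tail therefore cannot be told apart.

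**Figure D3:**
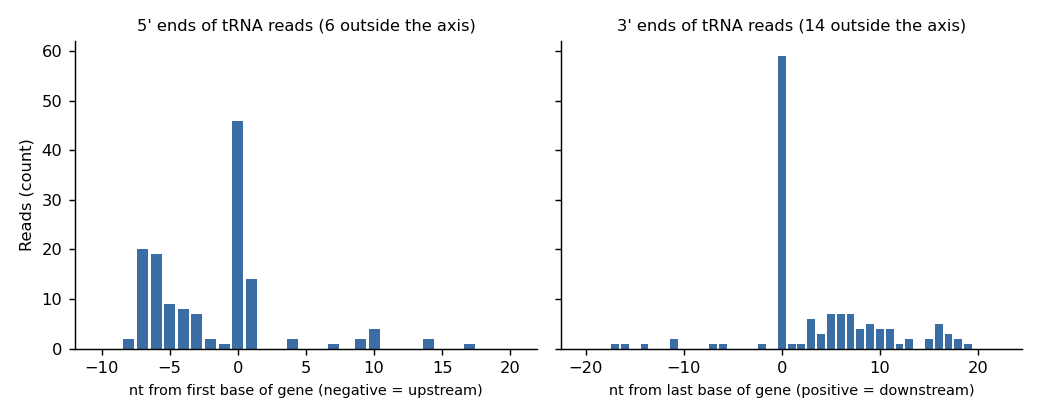
Number of tRNA reads (vertical axes) by the distance in nt of their 5' end from the first base of the gene (left) and of their 3' end from its last base (right). The 5' ends form a peak of 46 reads at the first base and a second group 3 to 8 nt upstream, and the 3' ends form a peak of 59 reads at the last base with a broad downstream shoulder.

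The ends of a molecule mostly went together. Both a leader and a trailer were present on 53 reads (36.3%, 28.9 to 44.4%), the outline of a primary transcript. Both ends lay within 2 nt of the gene ends on 51 reads (34.9%, 27.7 to 43.0%), the outline of an end-processed tRNA, and 37 of these matched the gene exactly. Of the 51, 1 is a tandem read, described below, with its outer ends at the ends of a pair of genes. Whether a 5' end is that of the RNA or of a shortened cDNA copy cannot be told from the alignments. Reads with 1 end outside the gene and the other at a gene end were rarer. A leader with a 3' end at the gene end was seen on 5 reads (3.42%, 1.47 to 7.77%), of which 4 were the identical reads of tRNA-Gly.12. A trailer with a 5' end at the gene start was seen on 10 reads (6.85%, 3.76 to 12.1%). Finished tRNA in the chromatin fraction and newly made tRNA that had already been trimmed cannot be told apart in these data.

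Leaders were short and of narrow length. Apart from 1 read that began in a neighbouring tRNA gene, the 65 leaders ran from 3 to 8 nt with a median of 6 nt, and none was longer. Leaders of 6 or 7 nt made up 39 of the 65. Of the 58 leaders of 4 to 8 nt, 42 began with A (72.4%, 59.8 to 82.2%) and 13 with G (22.4%, 13.6 to 34.7%), while 2 began with C and 1 with T. Among the bases 4 to 8 nt upstream of the genes with reads, 38.5% were A, 15.8% G, 19.2% C and 26.5% T. The leaders were counted by read, so a start shared by several reads of a gene counts each time. The upstream bases were counted once per gene, also for genes whose reads had no leader. The difference between the 2 sets was not tested. RNA polymerases are known to start transcription mostly at purines. In tRNA-Ala.06, printed above, the leaders were 3, 4 and 7 nt long.

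Further upstream, the letters TATA, which in fission yeast stand before most tRNA genes and are bound by the TATA-binding protein, were searched 20 to 50 bases before the gene start. The motif reads the same on both strands. It was found before 125 of 171 tRNA genes (73.1%, 66.0 to 79.2%) and before 37 of the 52 with reads (71.2%, 57.7 to 81.7%). The same window held it before 27.2% of 5113 protein-coding genes and 39.4% of 66 snoRNA genes, where snoRNAs are the guides of rRNA modification. The genes with reads thus differed from all tRNA genes by less than the counting error.

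Trailers were longer and more varied than leaders, and most of their ends lay in a T run. Apart from 2 reads that ended in a neighbouring tRNA gene, the 71 trailers ran from 3 to 202 nt with a median of 9 nt, and 63 were at most 19 nt long. A run of at least 4 T began a median of 4 nt past the gene, and for 156 of the 171 genes this first run held 5 T or more. TTTT was present in the 30 bases past 164 of the 171 tRNA genes (95.9%, 91.8 to 98.0%), past 47 of the 52 with reads, past 34.4% of protein-coding genes and past 47.0% of snoRNA genes. Its reverse complement AAAA, which cannot overlap it, was present in the same window past 21.6% of tRNA genes.

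Most trailers ended inside this run. Of the 71, the 3' end lay in the first T run for 51 (71.8%, 60.5 to 81.0%), in a later run for 7, before the first run for 10 and beyond it in no run for 3. In any run, the share was 81.7% (71.2 to 89.0%), and 80.6% when identical alignments were counted once. Within the first run, bases 3, 4 and 5 of the run were the commonest last bases, with 12, 16 and 13 reads. The runs differ in length, with 5 T at tRNA-Ala.06 and 8 T at tRNA-Ser.10, so later bases do not exist in all of them. The exact base within a run could not be checked, since the aligned bases are not in the deposited alignments.

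**Figure D4:**
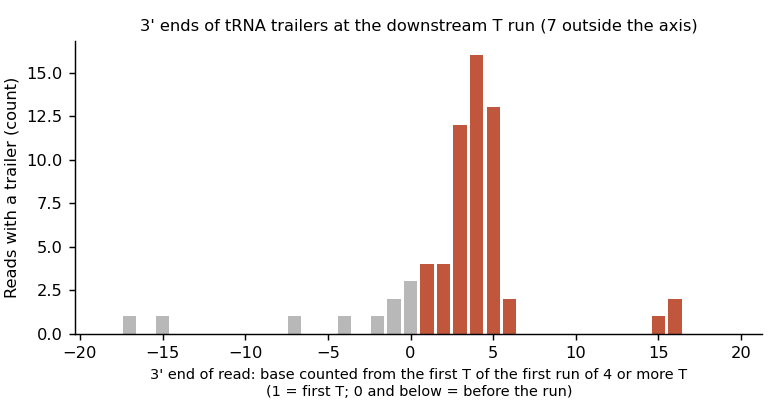
Number of reads with a trailer (vertical axis) by the position of their 3' end, counted from the first T of the first run of at least 4 T past the gene (horizontal axis, in bases). Red bars are 3' ends at or past the first T and grey bars are ends before it. The ends pile up at bases 3, 4 and 5 of the run, with 12, 16 and 13 reads.

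In genes taken as examples, most trailers ended in the first run, so their length went with its place. This relation was not measured over all genes. The downstream sequences of 6 genes are given here from the first base past the gene, with the first T run in capitals. They were chosen, after the values were seen, to show a run that starts at once, a near one, a distant one and a pair of identical genes with different flanks.
tRNA-Tyr.04: TTTTTTT
tRNA-Pro.08: gaacTTTTT
tRNA-Leu.10: gtaccTTTTT
tRNA-Leu.11: gtactgaaaaTTTTT
tRNA-Ala.06: atgttagaaactaTTTTT
tRNA-Gln.01: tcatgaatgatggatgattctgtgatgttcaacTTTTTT

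At tRNA-Tyr.04 (II:3814558-3814641, plus), where the run starts at the first base, the 3 trailers were 3, 4 and 6 nt long. At tRNA-Pro.08 (II:3360519-3360590, minus) the run covers bases 5 to 9 past the gene, and the trailers were 6 and 7 nt. tRNA-Leu.10 (II:3914043-3914121, plus) and tRNA-Leu.11 (III:1069166-1069244, plus) have the same gene sequence, but their runs lie at bases 6 to 10 and 11 to 15. Of the 4 trailers of tRNA-Leu.10, 2 ended 9 nt past the gene, while the 3 trailers of tRNA-Leu.11 ended 13, 13 and 15 nt past it, each within its own run. At tRNA-Ala.06 the run lies at bases 14 to 18, and all 7 trailers ended 16 to 18 nt past the gene. At tRNA-Ser.10 (III:1253193-1253287, plus), with a run of 8 T at bases 7 to 14, all 6 trailers were 9 to 11 nt long.

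Some molecules stopped short of the run or passed it. All 3 trailers of tRNA-Leu.03 (6, 6 and 7 nt) ended before its run, which begins at base 8. Others of the 10 that ended before the first run were far from it. They were at tRNA-Thr.10 (7 nt, run from base 25), tRNA-Ser.13 (3 nt, from base 19) and tRNA-Gly.10 (8 nt, from base 13). The rest of the 10 were at tRNA-Leu.05, tRNA-Pro.01 and tRNA-Met.07. At tRNA-Asn.04 (II:4210053-4210126, minus) a run of only 4 T follows the gene directly, and all 3 trailers passed it and ended 15, 16 and 16 nt downstream, in a later run. Trailers over 30 nt were seen on 8 reads. They came from tRNA-Leu.10 (80 and 202 nt), tRNA-Ile.02 (74 and 101 nt), tRNA-Gln.01 (37, 108 and 117 nt) and tRNA-Thr.06 (51 nt). At tRNA-Gln.01 the first run starts only at base 34, and the 37-nt trailer ended in it.

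Ends in T runs were also counted for other RNAs of the same sample. U6, the spliceosomal RNA that is likewise made by RNA polymerase III, ended in a run of at least 4 T in 30 of 46 reads (65.2%, 50.8 to 77.3%). The RNA of the signal recognition particle, another product of that polymerase, did so in 2 of 118 reads (1.69%, 0.466 to 5.97%). snoRNA genes gave 36.3% of 10954 reads and protein-coding genes 11.7% of 3704 reads. With identical alignments counted once, the shares were 51.6% of 31 for U6, 4.08% of 49 for the signal recognition particle RNA, 38.7% of 2352 for snoRNA genes and 6.59% of 2791 for protein-coding genes. Over all 146 tRNA reads, trimmed ones included, the share was 40.4% (32.8 to 48.5%), and 48.2% of 114 distinct alignments. The tRNA reads with a trailer are a chosen subset, and no such choice was made for the other RNAs, so the 81.7% is not directly comparable with them.

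Pairs of tRNA genes were read as single molecules. Fission yeast is known for genes in which a serine tRNA and the initiator methionine tRNA are made as a dimeric precursor. There are 4 pairs of same-strand tRNA genes within 20 nt of each other, and each had at least 1 tandem molecule, a read that covered at least 50% of both genes. In all there were 9 such reads, 8 of them at serine and methionine pairs, and all 9 were distinct alignments. The sequences of the 4 pairs are given with the spacer between the genes in capitals, together with the bases that flank the pair.
tRNA-Met.05 and tRNA-Asn.01: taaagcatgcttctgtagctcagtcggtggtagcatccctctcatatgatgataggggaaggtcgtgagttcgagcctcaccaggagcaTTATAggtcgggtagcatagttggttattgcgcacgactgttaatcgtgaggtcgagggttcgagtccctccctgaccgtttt
tRNA-Ser.01 and tRNA-Met.01: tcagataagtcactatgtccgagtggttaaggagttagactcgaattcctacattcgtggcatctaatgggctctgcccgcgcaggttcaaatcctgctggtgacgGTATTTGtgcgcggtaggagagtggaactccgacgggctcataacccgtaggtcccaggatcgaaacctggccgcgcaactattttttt
tRNA-Ser.03 and tRNA-Met.03: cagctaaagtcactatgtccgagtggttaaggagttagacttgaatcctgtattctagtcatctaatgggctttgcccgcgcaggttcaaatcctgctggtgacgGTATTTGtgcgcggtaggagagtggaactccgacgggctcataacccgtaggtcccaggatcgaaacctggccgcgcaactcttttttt
tRNA-Ser.11 and tRNA-Met.07: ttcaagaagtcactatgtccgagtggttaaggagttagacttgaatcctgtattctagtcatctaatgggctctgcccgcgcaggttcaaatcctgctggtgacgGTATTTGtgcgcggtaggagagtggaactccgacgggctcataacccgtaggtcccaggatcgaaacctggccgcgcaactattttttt

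The 3 serine and methionine pairs lie at I:1096369-1096545, I:4265149-4265324 and III:1689713-1689888, all on the plus strand, and share the same 7-nt spacer. The pair of tRNA-Met.05 and tRNA-Asn.01 lies at II:1597996-1598155 on the minus strand, with a spacer of 5 nt. The tandem reads numbered 3 at tRNA-Ser.01 and tRNA-Met.01, 2 at tRNA-Ser.03 and tRNA-Met.03, 3 at tRNA-Ser.11 and tRNA-Met.07, and 1 at tRNA-Met.05 and tRNA-Asn.01.

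Of the 9 tandem reads, 6 covered every base of both genes. The longest, of 189 nt, began 7 nt before tRNA-Ser.03 and ended 6 nt past tRNA-Met.03. At tRNA-Ser.01 and tRNA-Met.01, 1 read began 6 nt before the first gene and ended 5 nt past the second, and another began 2 nt before and ended 4 nt past. At tRNA-Ser.11 and tRNA-Met.07, 2 reads began 5 nt before the first gene and ended 3 and 7 nt past the second, and the other began 2 nt before and ended at the last base of tRNA-Met.07. The read of tRNA-Met.05 and tRNA-Asn.01 began 7 nt inside the first gene and ended 3 nt past the second. Among the 9, 7 began at least 2 nt before the first gene, and 6 ended 3 to 8 nt past the second.

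Of the 15 reads at these 4 pairs, 12 touched both genes and 3 touched the first gene alone. Of these 3, 1 read of tRNA-Ser.01 ended exactly at the end of the serine gene and another ended 2 nt before it, the outline of a serine tRNA separated from its partner, while the read of tRNA-Ser.03 ended 29 nt before the end of the gene. No read lay on the second gene alone. The 3 methionine genes belong to a set of 4 identical copies, and tRNA-Asn.01 to a set of 5, so a separated methionine or asparagine tRNA would match several loci equally well, and where the aligner put such reads is not known. The absence of such reads therefore does not show that the pairs were uncut.

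**Figure D5:**
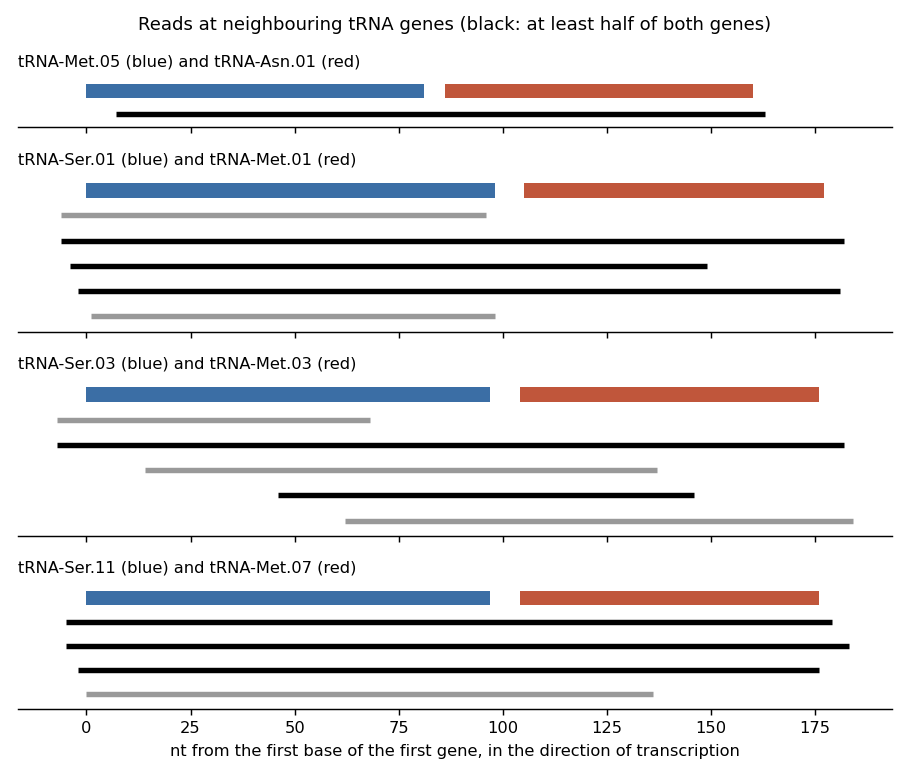
Reads at the 4 pairs of neighbouring tRNA genes, drawn to scale from the first base of the first gene (horizontal axis, in nt), with the first gene in blue and the second in red. Black lines are the 9 tandem reads and grey lines are the other 6 reads. Most black lines begin a few nt before the blue gene and end a few nt past the red one.

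Introns are annotated in 44 of the 171 genes. They are 7 to 30 nt long with a median of 9.5 nt, and in 40 genes they begin after base 37, 38 or 39 of the gene. All 44 are shorter than 31 nt, the shortest gap in any alignment of the sample. A removed intron may thus have been taken as a short deletion within 1 aligned block, where it would leave no trace in the deposited coordinates. Since the aligner is not known, such reads may also have been cut short at the intron or dropped. No share of spliced molecules is given for this reason. Examples of genes with at least 3 reads across the intron are given with the annotated intron in capitals.
tRNA-Ala.06: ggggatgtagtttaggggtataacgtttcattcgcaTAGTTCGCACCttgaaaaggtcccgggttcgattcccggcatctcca
tRNA-Ser.10: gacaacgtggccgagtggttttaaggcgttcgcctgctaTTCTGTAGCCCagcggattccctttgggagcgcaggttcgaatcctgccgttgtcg
tRNA-Tyr.04: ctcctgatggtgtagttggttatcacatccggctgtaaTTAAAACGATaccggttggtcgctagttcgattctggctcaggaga
tRNA-Leu.03: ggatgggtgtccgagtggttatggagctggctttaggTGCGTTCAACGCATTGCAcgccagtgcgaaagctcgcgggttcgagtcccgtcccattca
tRNA-Ile.02: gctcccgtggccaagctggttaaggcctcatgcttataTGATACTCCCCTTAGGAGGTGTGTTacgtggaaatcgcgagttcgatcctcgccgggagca

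Reads began before and ended after 18 of the 44 introns. They numbered 58, or 53 distinct alignments, and all 58 crossed the intron in a single block. tRNA-Ala.06 had 12 such reads across its 11-nt intron (I:4797013-4797023) and tRNA-Ser.10 had 6 (III:1253232-1253242). tRNA-Ile.02 (25 nt, I:2578464-2578488), tRNA-Ser.01 (16 nt, I:1096406-1096421) and tRNA-Tyr.04 (10 nt, II:3814596-3814605) had 5 reads each. tRNA-Leu.03 (18 nt, I:3591985-3592002) and tRNA-Ser.11 (15 nt, III:1689750-1689764) had 4 each, and tRNA-Leu.05 (16 nt, II:1402488-1402503) and tRNA-Ser.03 (15 nt, I:4265186-4265200) had 3 each. The other 9 introns with reads had 1 or 2. Of the 26 introns with none, 21 lie in genes that share their sequence, and among genes with a sequence of their own 14 of 19 introns had reads. The identical genes tRNA-Ser.06, tRNA-Ser.10 and tRNA-Ser.13 carry introns annotated with different ends (9 nt in the first, 11 nt in the others), so these borders are uncertain.

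Molecules that crossed an intron mostly carried flanking sequence. Of the 58, 30 had both a leader and a trailer (51.7%, 39.2 to 64.1%), 36 had a leader and 40 had a trailer. Any read that ran on into the next gene, tandem or not, counts here as having a trailer. Both ends lay at the gene ends in 12 (20.7%, 12.3 to 32.8%), 5 of them at tRNA-Ala.06. At that gene the other 7 reads all had trailers, and 6 of these also had leaders. At tRNA-Ser.10, 5 of 6 reads had a leader and a trailer, and none had both ends at the gene ends.

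Genes with and without an intron were set side by side, with tandem reads left out. The 2 reads that ended in a neighbouring tRNA gene, both from genes with an intron, were kept. They count here as having a trailer, unlike in the 71 trailers above. A trailer was present on 34 of 52 reads of genes with an intron (65.4%, 51.8 to 76.8%) and on 33 of 85 reads of genes without (38.8%, 29.2 to 49.5%). Both ends lay at the gene ends on 23.1% (13.7 to 36.1%) and 44.7% (34.6 to 55.3%) of these reads. The repeated glycine reads are among those of genes without an intron. With identical alignments counted once, a trailer was present on 68.1% of 47 and 53.4% of 58 alignments, with intervals of 53.8 to 79.6% and 40.8 to 65.7% that overlap. Both ends then lay at the gene ends on 19.1% (10.4 to 32.5%) and 29.3% (19.2 to 42.0%), which overlap as well. Without tRNA-Ala.06 and tRNA-Gly.05, the genes of each kind with the most reads, a trailer was present on 67.5% and 48.5% of reads. With single-copy genes only, the difference was wider, at 60.5% of 43 reads (45.6 to 73.6%) and 21.1% of 57 (12.5 to 33.3%). With identical alignments counted once among these, it was 64.1% of 39 and 37.5% of 32, with overlapping intervals (48.4 to 77.3% and 22.9 to 54.7%). Of the 57 reads, 35 came from the 4 single-copy glycine genes. Trailers on these were 0 of 17 reads at tRNA-Gly.05, 0 of 8 at tRNA-Gly.12, 0 of 6 at tRNA-Gly.04 and 1 of 4 at tRNA-Gly.09. The part of the glycine genes in the difference was not tested.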

How the data were processed

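The authors deposited genome alignments of consensus reads, 1 line per alignment with start, end, strand and blocks. The score field of the deposited files holds the same value, 40, throughout and played no role. Cutadapt 1.8 and the build sacCer3 are named in the submitters' processing notes, but sacCer3 cannot be the build of the fission yeast alignments. The aligner and its settings are not given in the sources used here. Alignments were compared with ASM294v3, where 0 ends lay beyond a chromosome. Of the distinct gaps, 329 matched an annotated intron exactly on the same strand and 0 on the opposite strand. Gaps that matched no annotated intron were not counted for this purpose. All 329 ran from GT to AG, but this is a property of the annotated introns and does not test the build. Depth was 16126 alignments of 16122 reads, of which 6246 are distinct and 451 mitochondrial. The 25 mitochondrial tRNA features were left out.

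Leaders and trailers are read ends at least 3 nt outside the gene, and ends within 2 nt count as at the gene end. Shares have Wilson intervals and counts exact Poisson intervals at 95% (Python 3.11.15, SciPy 1.17.1), and a count of 0 has an upper limit of 3. The code that assigns reads was checked on simulated reads placed at known coordinates. This does not test how the aligner chose among identical or similar genes. Named loci are those with at least 10 reads, with a tandem molecule or with at least 3 reads across an intron, and every isotype is counted. Other named loci were chosen after their values were seen. The members and lists were chosen with earlier results of these data known. Alternatives were other overlap rules and end minimums, identical alignments counted once, movies taken apart, the top gene left out and single-copy genes only.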

Additional observations from a re-analysis of the deposited data

How the results depend on the processing

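Counting identical alignments once raised the tRNA share of alignments from 0.905% to 1.83%, since all alignments fell from 16126 to 6246 and tRNA alignments from 146 to 114. With the same change the share of reads with a trailer rose from 50% to 60.5%, and that of genes without an intron from 38.8% to 53.4%. For genes without an intron, single-copy genes gave 21.1% with a trailer, and the share with both ends at the gene ends went from 44.7% to 29.3% with identical alignments counted once, 33.8% without tRNA-Gly.05 and 57.9% with single-copy genes only. These alternatives for genes with and without an intron were chosen after seeing the data, and the values for genes with an intron moved less than their counting error. A minimum of 6 nt lowered the share with a leader from 45.2% to 28.8% and that with a trailer to 39.0%, as a stricter minimum must. With single-copy genes only, 38% of reads had a trailer, and the cause was not tested. The isotype counts moved by over 1.5 times for 1 of 17 isotypes (glycine) with identical alignments counted once and for 9 of 17 with single-copy genes only. The counts of tRNA reads (114 to 146), tandem molecules (6 to 12) and reads across introns (53 to 58) stayed within 1.5 times of their main values under each alternative run. No paired analysis was possible because fission yeast has 1 sample. The main limits are depth (146 reads), identical gene copies, PCR copies that could not be removed and finished tRNA in the chromatin fraction.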

Other observations

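In the budding yeast pool of the same series, whose deposited alignments hold both replicates together, tRNA genes (275 in number) had 750 of 101128 alignments (0.742%, 0.691 to 0.796%). A leader of at least 3 nt was present on 50.9% of these reads (47.4 to 54.5%) and a trailer on 56% (52.4 to 59.5%), against 45.2% and 50% in fission yeast. With identical alignments counted once the shares were 63.4% and 67.9% in budding yeast, against 51.8% and 60.5% in fission yeast. Libraries, species and annotations differ together, and no test was made.

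For 5 fission yeast genes whose identifiers name aspartate, the annotated product is an asparagine tRNA. Of these, tRNA-Asp.05 on chromosome III, tRNA-Asp.06, tRNA-Asp.07 and tRNA-Asp.08 belong to a set of 7 identical genes. The others of that set, tRNA-Asp.01, tRNA-Asp.02 and tRNA-Asp.04, have an aspartate tRNA as product. No read fell on any of these genes, so no read count by isotype depends on the name. The numbers of genes by isotype follow the identifiers.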
